A study of Mus musculus with 18 samples.

Results

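The EphA receptors are receptor tyrosine kinases that bind ephrins on neighbouring cells. The members described here are the genes of the study's signalling pathway list whose symbol begins with Epha followed by a digit, matched by UCSC identifier, and they number 6 of the 170 genes of that list: Epha1, Epha2, Epha3, Epha4, Epha7 and Epha8. All 6 are among the 12064 genes measured in the mesoderm. Epha2, Epha3, Epha4 and Epha7 are among the 11231 genes measured in the embryonic neural tube (NT) and in limb buds of the forelimb (FL), and Epha1 and Epha8 were not analysed there.

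The data come from mouse embryos at E11.5 and comprise 18 libraries, with 3 replicates in each of 6 groups. RNA-Seq counts the polyadenylated mRNA of a gene. Ribo-Seq counts ribosome-protected fragments (RPFs), the stretches of mRNA that ribosomes shield from nuclease, and the ratio of RPFs to mRNA is called translation efficiency (TE). Mesoderm cells came from R26-mTmGflox/+; Tg(T-cre)1LWD/J/+ embryos and were sorted as GFP+, so they are every cell in which, or in whose ancestors, the T promoter drove Cre, a mixture of many derivatives of the primitive streak. NT, between the hindbrain and the hindlimb level, and FL were dissected from the same wild-type FVB embryos, and dissected tissue can hold vessels, blood and, in the FL, surface ectoderm beside its main cells. All 3 tissues were kept in cycloheximide, which stalls ribosomes, and the sorted mesoderm cells were divided between Ribo-Seq and RNA-Seq. The study's methods describe the same division for dissected tissue that was dissociated into cells. In these bulk samples, fewer cells of a type and less RNA per cell cannot be told apart.

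Eph receptors signal when a cell touches another cell that carries an ephrin, and the contact often ends in repulsion. EphA receptors bind mainly ephrin-A ligands, which are anchored to the membrane by a lipid, whereas EphB receptors bind mainly the transmembrane ephrin-B ligands. In the embryo the family sets boundaries between segments, guides motor axons into the limb and arranges the axon maps of the brain. Epha4 also binds ephrin-B ligands and steers motor axons and axons near the midline. Epha3 acts in axon guidance and in the formation of the heart valves. Epha7 acts in axon mapping and in closure of the neural tube, and is also made in truncated forms that lack the kinase. Epha2 and Epha1 are known mainly from epithelia, and Epha8 from the midbrain.

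The 6 mRNAs were first compared where translation starts, since TE is the measure that the study was built on. The bases around the annotated start codon are given below from 6 bases before it to 3 bases after it, 5′ to 3′, with the start codon in capitals (longest coding isoform of GENCODE M21, GRCm38, which is the same assembly as mm10).
Epha1: ggcgccATGgag
Epha2: tgcggcATGgag
Epha3: agcaacATGgat
Epha4: cgaaccATGgct
Epha7: tgcaccATGgtt
Epha8: ccggccATGgcc
All 6 hold A or G 3 bases before the start codon and G directly after it, the 2 positions best known to favour initiation. Of 20228 mouse genes with such an annotation, 41.1% hold both, 84.0% the first and 49.4% the second. The members therefore did not differ in these positions, whatever their TE. The start codons lie at chr6:42373208-42373210 (Epha1, minus strand), chr4:141301353-141301355 (Epha2, plus strand), chr16:63864045-63864047 (Epha3, minus strand), chr1:77515029-77515031 (Epha4, minus strand), chr4:28813384-28813386 (Epha7, plus strand) and chr4:136956745-136956747 (Epha8, minus strand). The annotated 5′ UTR is short in Epha4 (57 bases), Epha1 (58 bases), Epha8 (69 bases), Epha3 (111 bases) and Epha2 (113 bases), and longer in Epha7 (253 bases). The median over the 20228 genes is 169 bases. Epha3 has 3 ATG triplets in its 5′ UTR and Epha7 has 2, the other members have 0, and 54.3% of all genes have at least 1. Every member has 17 or 18 exons and a coding length between 2931 and 3012 bases, so levels per length keep nearly the order of the reads. The exons of Epha1 overlap other annotated genes, Zyx and 2010310C07Rik, and its value is the less certain for that. The isoforms counted in the deposited data can differ from these.

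Depth on the measured genes ran from 11000015 to 50136443 reads per library. Neural markers were higher in the NT and limb markers in the FL. The 5 neural markers found of 11 listed summed to between 37832 and 60667 normalized reads in NT RNA-Seq and to between 6831 and 8346 in FL RNA-Seq, and the 4 limb mesenchyme markers found of 7 to between 1800 and 1927 and between 26331 and 32535. In mesoderm RNA-Seq the neural sum was between 9658 and 12359 and the limb sum between 15564 and 18145. No marker that was found was at 0 in every library of a group. Among the NT and FL libraries, 3 stood apart from the other replicates of their group. FL Ribo-Seq replicate 3 differed more than 2-fold from the mean of the other 2 replicates in 3706 genes (33.0%), NT Ribo-Seq replicate 3 in 1694 genes (15.1%) and NT RNA-Seq replicate 1 in 873 genes (7.77%). The same count was 1072 and 751 genes for FL Ribo-Seq replicates 1 and 2, whose comparison includes replicate 3, 317 and 281 for NT Ribo-Seq replicates 1 and 2, 411 and 489 for NT RNA-Seq replicates 2 and 3, and between 60 and 124 in FL RNA-Seq. The correlation across genes of a Ribo-Seq library with the RNA-Seq libraries of its tissue was between 0.90 and 0.91 for FL replicate 3 and between 0.73 and 0.74 for FL replicates 1 and 2. It was between 0.83 and 0.86 for NT replicate 3 and between 0.90 and 0.92 for NT replicates 1 and 2. The deviations from the group means ran together across the tissues, with correlations across genes of 0.49 for NT replicates 1 and 2 with FL replicate 3, and of 0.35 and 0.59 for NT replicate 3 with FL replicates 1 and 2, while every other pair was below 0. Deviations of 3 libraries from their mean sum to 0, so the signs of these correlations are tied to each other. The pattern can be read as NT replicate 3 and FL replicate 3 deviating in opposite directions (-0.58). Whether the Ribo-Seq libraries form sets that cross the tissues, which would be in unequal numbers, was not tested. The labels name no batch, and the part of this pattern in the RPF and TE differences between FL and NT was not tested. Results between FL and NT are therefore given with and without the libraries that stood apart. In the mesoderm the same count was 1942 and 1864 genes for Ribo-Seq replicates 1 and 2 and 1510 genes for RNA-Seq replicate 1, and TE was also computed without each replicate.

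In the mesoderm the EphA receptors differed widely in level and little in TE, apart from Epha8 and Epha1. Epha4, Epha3 and Epha7 were abundant both as mRNA and as RPFs, Epha2 was intermediate, and Epha1 and Epha8 were low. Epha8, 1 of the 6 members, was called TE-low, and 0 were called TE-high. Among all 12064 genes 10.9% were called TE-low and 1.17% TE-high, at a limma adjusted p under 0.05 and at least 3-fold from the median gene.

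Epha4 had 4370, 3310 and 4402 normalized reads in RNA-Seq replicates 1, 2 and 3 and 7485, 4051 and 6653 in Ribo-Seq. Its Ribo-Seq value was above its RNA-Seq value in each of the 3 replicates, while the ranges of the library types overlapped. Its log2 TE relative to the median gene was 0.52 (SE 0.18, limma adjusted p = 0.0252), which is under 3-fold, and 32.0% of all genes had an adjusted p under 0.05 with higher TE at any fold. The limma adjusted p was 0.157 without replicate 1, 0.000147 without replicate 2, 0.234 without replicate 3 and 0.170 with no replicate block. Epha3 had 3258, 1645 and 2910 normalized reads in RNA-Seq and 3789, 1819 and 3060 in Ribo-Seq. Epha7 had 2200, 1265 and 1805 in RNA-Seq and 2997, 1386 and 2455 in Ribo-Seq. For Epha3, Epha4 and Epha7 alike, replicate 2 was the lowest library of each type. Replicate 2 also held the most mRNA of Hba-x, an embryonic globin of red blood cells, with 12367 normalized reads against 2251 and 4719 in replicates 1 and 3, and its part in these levels was not tested. TE compares libraries of the same cells, and log2 TE was 0.11 (SE 0.17, limma adjusted p = 0.582) for Epha3 and 0.31 (SE 0.17, limma adjusted p = 0.139) for Epha7.

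Epha2 had 480, 660 and 406 normalized reads in RNA-Seq and 571, 548 and 628 in Ribo-Seq, with overlapping ranges and a log2 TE of 0.17 (SE 0.20, limma adjusted p = 0.481). Epha1 had 263, 292 and 251 normalized reads in RNA-Seq and 186, 124 and 196 in Ribo-Seq. All 3 Ribo-Seq libraries of Epha1 lay below all 3 RNA-Seq libraries, an order that 27.3% of all genes shared. Its log2 TE of -0.72 (SE 0.22, limma adjusted p = 0.0137) passed the test and not the 3-fold limit, in a contrast in which 34.2% of all genes had an adjusted p under 0.05 with lower TE at any fold. With no replicate block its limma adjusted p was 0.0773.

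Epha8 had 153, 309 and 248 normalized reads in RNA-Seq and 47.7, 83.0 and 88.1 in Ribo-Seq. The library types did not overlap, and within each replicate TE, the ratio of RPFs to mRNA, was 0.315, 0.271 and 0.357. Its log2 TE of -1.71 (SE 0.22, limma adjusted p = 7.2e-05) put it 3.28-fold below the median gene, at the 9.19th percentile of all genes. These values rest on between 32 and 40 recovered footprint reads and between 303 and 647 mRNA reads per library. Under the 11 alternative settings Epha8 stayed called, with a log2 TE between -1.81 and -1.62, and every other member stayed uncalled.

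**Figure D1:**
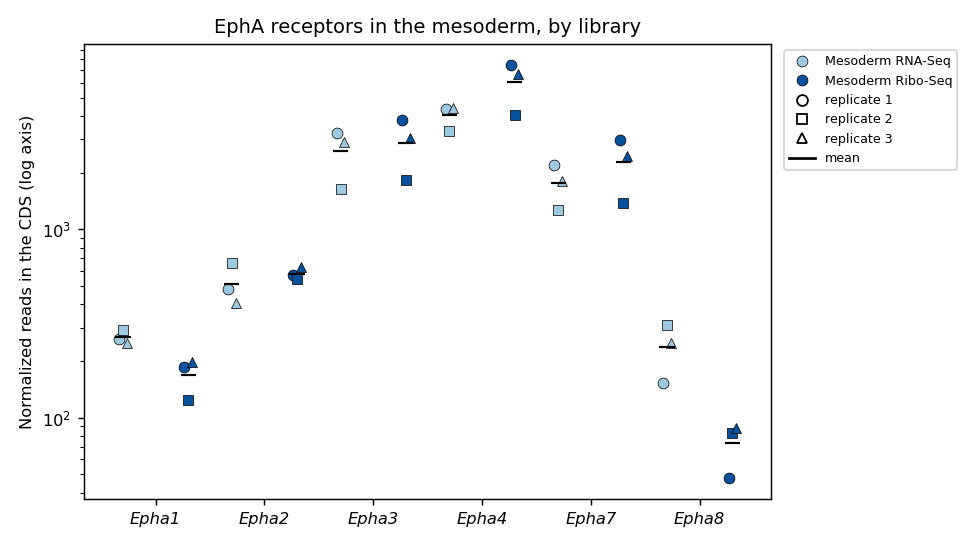
Normalized reads in the coding sequence (log axis) of the 6 EphA receptors in the mesoderm, with 1 point per library, shapes for replicates 1 to 3 and a bar at the mean of 3. The Ribo-Seq points of Epha8 (between 47.7 and 88.1) all lie below its RNA-Seq points (between 153 and 309), whereas those of Epha4 lie between 4051 and 7485.

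Per kilobase of counted coding sequence, the order of levels in mesoderm RNA-Seq was Epha4 (1390 ± 214 normalized reads per kb, SD, n = 3), Epha3 (901 ± 293), Epha7 (599 ± 160), Epha2 (179 ± 45.5), Epha1 (93.5 ± 7.41) and Epha8 (80.2 ± 26.6). The neighbours Epha3 and Epha7, and Epha1 and Epha8, overlapped between libraries and cannot be ordered. In Ribo-Seq the order was the same, from 2092 ± 618 for Epha4 to 58.9 ± 13.6 for Epha1 and 24.7 ± 7.45 for Epha8. There only Epha3 and Epha7 overlapped as neighbours, and Epha1 and Epha8 were apart.

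In the NT, Epha3 and Epha4 were the most abundant members as mRNA, and Epha4 alone led in RPFs. Of the 4 members measured, 0 were called TE-low or TE-high in the NT and 0 in the FL, where 4.13% and 13.4% of all genes were called TE-low and 0.436% and 6.25% TE-high. Epha4 had 2215, 4277 and 3669 normalized reads in NT RNA-Seq replicates 1, 2 and 3 and 6084, 6373 and 5335 in NT Ribo-Seq. All 3 Ribo-Seq libraries lay above all 3 RNA-Seq libraries, an order shared by 24.5% of all genes, and log2 TE was 0.83 (SE 0.34, limma adjusted p = 0.0878). Epha7 showed the same order, with 660, 1392 and 1308 normalized reads in RNA-Seq and 2036, 2135 and 1580 in Ribo-Seq and a log2 TE of 0.81 (SE 0.46, limma adjusted p = 0.203). Neither passed the test. Without NT RNA-Seq replicate 1, the lowest mRNA library of both genes, log2 TE was 0.54 for Epha4 and 0.46 for Epha7.

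Epha3 had 1863, 4737 and 4317 normalized reads in NT RNA-Seq and 3407, 3716 and 2689 in NT Ribo-Seq, which overlapped, with a log2 TE of -0.08 (SE 0.31, limma adjusted p = 0.863). Epha2 is the member in which NT RNA-Seq replicate 1 stood out most, with 2866 normalized reads against 544 and 573 in replicates 2 and 3. In NT Ribo-Seq it had 838, 877 and 745. Its log2 TE was -0.27 (SE 0.49, limma adjusted p = 0.712) with that library and 0.51 (limma adjusted p = 0.183) without it, so 1 library set the direction. Epcam, an adhesion molecule of epithelia and pluripotent cells and the 1 marker of surface epithelium found of 4 listed, moved with Epha2 there, at 659 normalized reads in NT RNA-Seq replicate 1 against 96.0 and 107 in the others. Its part in the Epha2 value was not tested.

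In the FL, Epha4 was the most abundant member by a wide margin. It had 6178, 6421 and 5388 normalized reads in FL RNA-Seq and 3940, 4207 and 10485 in FL Ribo-Seq. Ribo-Seq replicates 1 and 2 were below every mRNA library and replicate 3 above every one, and log2 TE was -0.10 (SE 0.34, limma adjusted p = 0.804). Epha7 was split in the same way, with 1549, 1570 and 1585 normalized reads in RNA-Seq and 499, 567 and 2178 in Ribo-Seq. Its mRNA was the most even of any member, with a coefficient of variation of 1.17%, whereas that of its RPFs was 87.9%. Its log2 TE was -0.88 (SE 0.46, limma adjusted p = 0.11), and -1.57 without Ribo-Seq replicate 3, in both cases short of the 3-fold limit. Epha3 had 2176, 2124 and 1738 normalized reads in RNA-Seq and 1090, 1032 and 1544 in Ribo-Seq. The RPFs of Epha3 lay below its mRNA in all libraries, an order shared by 32.4% of all genes, with a log2 TE of -0.74 (SE 0.31, limma adjusted p = 0.0581). Epha2 had 606, 445 and 664 normalized reads in RNA-Seq and 524, 556 and 872 in Ribo-Seq and a log2 TE of 0.16 (SE 0.49, limma adjusted p = 0.784).

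**Figure D2:**
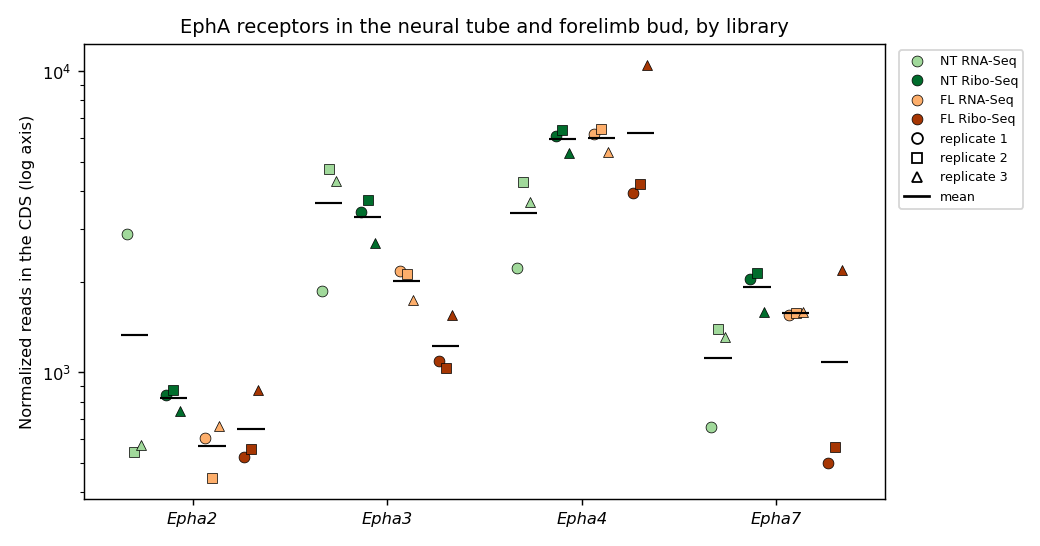
Normalized reads in the coding sequence (log axis) of the 4 EphA receptors measured in the NT and FL, with 1 point per library, shapes for replicates 1 to 3 and a bar at the mean of 3. Ribo-Seq replicate 3 of the FL (brown triangles) lies far above replicates 1 and 2 for Epha4 (10485 against 3940 and 4207) and Epha7 (2178 against 499 and 567), and RNA-Seq replicate 1 of the NT (pale green circles) stands at 2866 for Epha2.

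Per kilobase, NT RNA-Seq gave 1258 ± 537 normalized reads (SD, n = 3) for Epha3, 1169 ± 366 for Epha4, 462 ± 464 for Epha2 and 382 ± 137 for Epha7, and these neighbours overlapped throughout. Without NT RNA-Seq replicate 1 the means were 1565 for Epha3, 1371 for Epha4, 460 for Epha7 and 195 for Epha2, with no overlap, so the place of Epha2 above Epha7 rests on that library. NT Ribo-Seq gave 2046 ± 185 for Epha4, 1131 ± 182 for Epha3, 653 ± 101 for Epha7 and 286 ± 23.6 for Epha2, with every pair of neighbours apart. FL RNA-Seq gave 2069 ± 186 for Epha4, 696 ± 82.8 for Epha3, 534 ± 6.25 for Epha7 and 199 ± 39.4 for Epha2, again all apart. In FL Ribo-Seq Epha4 stood at 2143 ± 1278, above Epha3 (423 ± 96.9), Epha7 (369 ± 324) and Epha2 (227 ± 66.9), and of these the latter 3 overlapped as neighbours. Without FL Ribo-Seq replicate 3 the means were 1406, 367, 182 and 188 for Epha4, Epha3, Epha7 and Epha2.

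**Figure D3:**
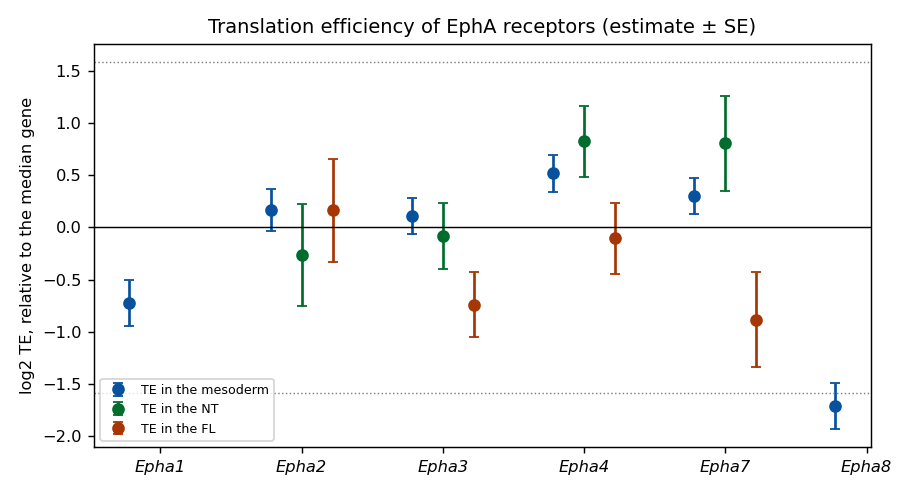
Log2 TE of each EphA receptor relative to the median gene (estimate ± SE from limma), in the mesoderm (blue), NT (green) and FL (brown), with dotted lines at 3-fold. Only Epha8 in the mesoderm (-1.71) passes a dotted line, and the FL estimates of Epha3, Epha4 and Epha7 lie below those of the other tissues.

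Side by side, the TE of Epha4 relative to the median gene was 0.52 in the mesoderm, 0.83 in the NT and -0.10 in the FL on the log2 scale, and that of Epha7 was 0.31, 0.81 and -0.88. For Epha3 the values were 0.11, -0.08 and -0.74, and for Epha2 0.17, -0.27 and 0.16. The mesoderm table was normalized separately, so its values were not tested against those of the NT and FL. The difference between FL and NT was tested as described next.

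Between FL and NT, Epha3 was the only member called with all libraries, in RPFs, where 32.7% of all genes were called in either direction. Its RPFs were lower in the FL, and 1 of the 4 members was called lower and 0 higher in RPFs, where 17.8% of all genes were called lower and 14.9% higher at a limma adjusted p under 0.05 and at least 2-fold. The 3 FL Ribo-Seq libraries of Epha3 (between 1032 and 1544 normalized reads) lay below the 3 NT libraries (between 2689 and 3716), an order shared by 21.1% of all genes. The difference, FL minus NT, was -1.43 on the log2 scale (SE 0.31, limma adjusted p = 0.00285), which is 2.70-fold. Without FL Ribo-Seq replicate 3 it was -1.61. With only NT Ribo-Seq replicates 1 and 2 and FL Ribo-Seq replicate 3 it was -1.20 and was not called. That set leaves 1 FL Ribo-Seq library. In mRNA Epha3 differed by -0.75 (SE 0.31, limma adjusted p = 0.116), and by -1.17 (limma adjusted p = 0.00347) without NT RNA-Seq replicate 1, its lowest NT library, when it was called, as were 9.5% of all genes in that direction. Of the TE of Epha3 no call was made in any setting, and the difference with all libraries was -0.68 (SE 0.45, limma adjusted p = 0.362).

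For mRNA, 0 of the 4 members were called in either direction, against 9.49% of all genes called lower and 7.82% higher in the FL. Epha4 had more mRNA in every FL library (at least 5388) than in any NT library (at most 4277), an order shared by 23.3% of all genes, with a difference of 0.87 (SE 0.34, limma adjusted p = 0.0876). Epha7 mRNA was also higher in each FL library (at least 1549) than in each NT library (at most 1392), with a difference of 0.56 (SE 0.46, limma adjusted p = 0.468). Without NT RNA-Seq replicate 1 these differences were 0.59 and 0.22. Epha2 mRNA differed by -0.77 (SE 0.49, limma adjusted p = 0.329) with that library and by 0.01 without it.

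In RPFs, Epha7 differed by -1.16 (SE 0.46, limma adjusted p = 0.0528), just short of the threshold, Epha2 by -0.37 (SE 0.49, limma adjusted p = 0.556) and Epha4 by -0.08 (SE 0.34, limma adjusted p = 0.856). For Epha7, FL Ribo-Seq replicates 1 and 2 were below every NT library and replicate 3 was above every one. Without replicate 3 the RPFs of Epha7 differed by -1.84 (limma adjusted p = 8.71e-05), and without NT RNA-Seq replicate 1 by -1.16 (limma adjusted p = 0.0488), and it was called in both, beside 24.3% and 17.5% of all genes called lower.

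The TE difference between FL and NT was called for 0 of the 4 members with all 12 libraries, at a limma adjusted p under 0.2 and at least 2-fold, where 0.276% of all genes were called lower and 0.125% higher. Epha7 had the largest difference among them, -1.72 (SE 0.64, limma adjusted p = 0.291), followed by Epha4 with -0.96 (SE 0.48, limma adjusted p = 0.295). Without FL Ribo-Seq replicate 3, Epha7 (-2.40, limma adjusted p = 0.000928) and Epha4 (-1.41, limma adjusted p = 0.00446) were called lower in the FL, in a fit in which 19.8% of all genes were called lower and 16.5% higher. Without NT Ribo-Seq replicate 3 both were called too, Epha7 at -1.85 (limma adjusted p = 0.135) and Epha4 at -1.03 (limma adjusted p = 0.195), with 15.0% of all genes called lower. With NT RNA-Seq replicate 1 and FL Ribo-Seq replicate 3 both left out, the values were -2.05 for Epha7 and -1.13 for Epha4, and 18.4% of all genes were called lower. Epha3 and Epha2 were called in none of these fits, and the TE difference of Epha2 was 0.40 with all libraries and -0.38 without NT RNA-Seq replicate 1.

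**Figure D4:**
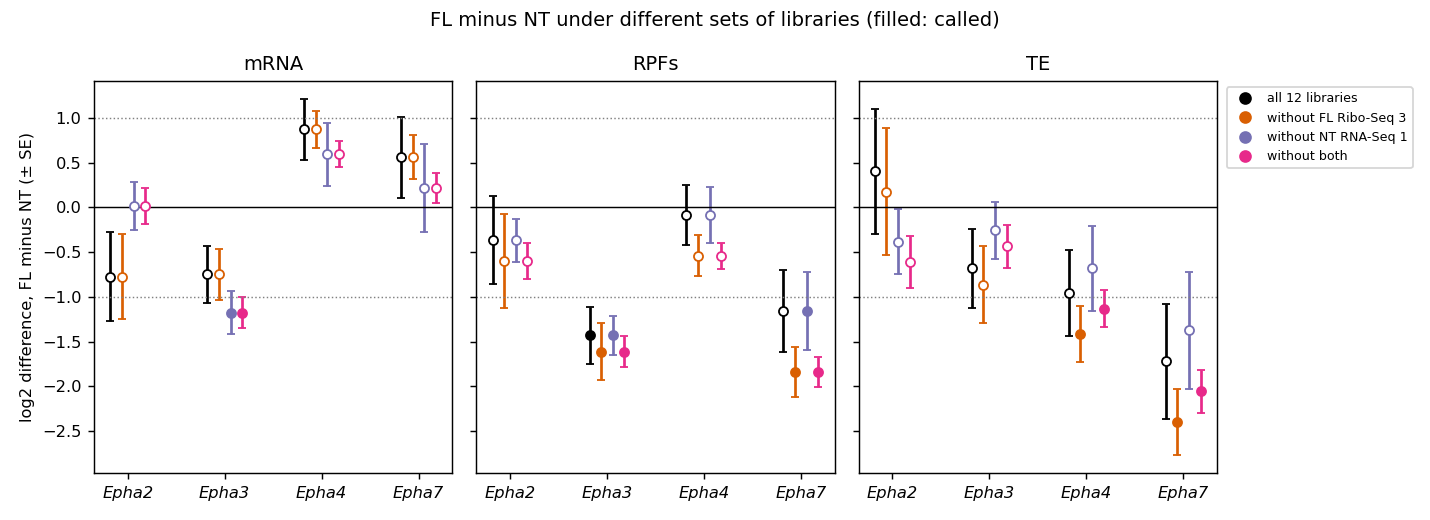
Difference FL minus NT (log2, estimate ± SE) of the 4 EphA receptors in mRNA, RPFs and TE, with colours for the libraries kept, filled points for values called and dotted lines at 2-fold. The RPF difference of Epha3 is -1.43 with all libraries and -1.61 without FL Ribo-Seq replicate 3. Leaving out NT RNA-Seq replicate 1 cannot move an RPF estimate. The TE difference of Epha7 moves from -1.72 with all libraries to -2.40 without FL Ribo-Seq replicate 3 and to -1.37 without NT RNA-Seq replicate 1.

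Epha4 took the largest share of the EphA pool in 15 of the 18 libraries, and in NT RNA-Seq it was Epha2 in replicate 1 and Epha3 in replicates 2 and 3. Each member's level per kilobase was divided by the sum over the members measured in that table. Epha5, an EphA receptor that is not a member, was left out of the sums. It had 541 normalized reads per kb in NT Ribo-Seq and 381 in NT RNA-Seq, so the NT and FL shares would be lower with it. Epha4 made up 50.4% ± 0.63 (SD, n = 3) of the EphA footprints in the mesoderm, against 43.0% ± 1.93 of the EphA mRNA. Among the 4 members in the NT it made up 49.8% ± 1.54 of footprints and 35.1% ± 5.33 of mRNA, and in the FL 66.9% ± 2.37 and 59.1% ± 1.67. In each tissue the share of Epha4 was higher in every Ribo-Seq library than in every RNA-Seq library. FL Ribo-Seq replicate 3, which stood apart in level, also stood apart in share. Epha4 made up 69.6% of its EphA footprints against 65.1% and 66.1% in replicates 1 and 2, Epha7 14.3% against 8.14% and 8.80%, and Epha3 10.3% against at least 16.2%. The share of Epha3 among the 4 was between 24.5% and 43.8% of mRNA and 27.4% ± 1.22 of footprints in the NT, and 19.8% ± 1.12 and 14.9% ± 4.07 in the FL. In NT RNA-Seq replicate 1 Epha2 took 37.9% of the pool, against 5.02% and 5.86% in replicates 2 and 3. Shares of a pool sum to 100%, so a rise of one member lowers the others, and they were not tested.

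**Figure D5:**
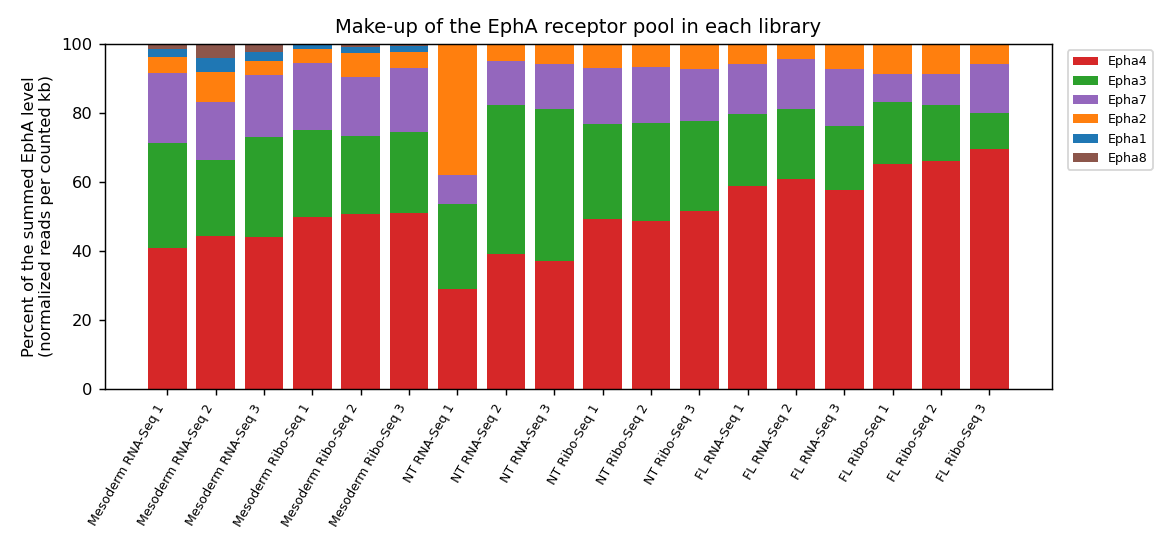
Percent of the summed EphA level (normalized reads per counted kb) that each receptor takes in each of the 18 libraries. The sum is over 6 receptors in the mesoderm and 4 in the NT and FL, without Epha5. Epha4 (red) takes between 65.1% and 69.6% in FL Ribo-Seq, and Epha2 (orange) takes 37.9% in NT RNA-Seq replicate 1.

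Among the relatives, Epha5 is not in the pathway list and was measured in the NT and FL only. This receptor of axon maps had 484, 1665 and 1347 normalized reads in NT RNA-Seq and 161, 130 and 201 in FL RNA-Seq, and 1863, 1867 and 1239 in NT Ribo-Seq against 85.0, 29.8 and 122 in FL Ribo-Seq. The tissues did not overlap, in mRNA an order shared by 24.1% of all genes, and the difference was -2.66 in mRNA (SE 0.51, limma adjusted p = 0.00143) and -4.56 in RPFs (SE 0.51, limma adjusted p = 1.1e-05). The TE difference of -1.90 (SE 0.72, limma adjusted p = 0.291) was not called. Without NT Ribo-Seq replicate 3 it was -2.10 and without FL Ribo-Seq replicate 3 it was -2.32, and both were called. Without NT RNA-Seq replicate 1, the lowest NT library of Epha5, it was -1.36, and without FL Ribo-Seq replicate 2, in which Epha5 had 14 recovered reads, it was -1.32, and neither was called. Its start context, tagaaaATGcgg, lacks the G after the start codon that all 6 members hold.

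Of the 5 EphB receptors, 4 were called in mRNA between FL and NT, where 17.3% of all genes were called in either direction. Ephb1 (-2.76) and Ephb2 (-1.33) were called lower and Ephb3 (1.56) and Ephb4 (2.60) higher in the FL, and the RPFs of Ephb1, Ephb2 and Ephb4 were called in the same direction, while Ephb3 was not called. Whether the families differ was not tested. In the mesoderm the log2 TE of all 5 EphB receptors was below 0, with a median of -0.58, and that of the 6 EphA receptors had a median of 0.14, against 0 over all genes. None of the EphB receptors was called. Ephb6, which lacks kinase activity, was the lowest at -1.39 (SE 0.17, limma adjusted p = 5.0e-05) and had -1.03 in the NT and -1.35 in the FL.

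Of 34 other receptor tyrosine kinases of the pathway list, 3 were called TE-low and 0 TE-high in the mesoderm, beside 10.9% and 1.17% of all genes, with a median log2 TE of -0.37. The 3 were Aatk (-2.72), Ryk (-2.30) and Fgfr3 (-1.84). Of the 29 measured in the NT and FL, 1 was called TE-low in the NT and 3 in the FL, beside 4.13% and 13.4% of all genes. As TE-high, 0 were called in the NT and 1 in the FL (Csf1r, 1.75), beside 0.436% and 6.25% of all genes. In FL mRNA 13 were called higher and 4 lower, beside 7.82% and 9.49% of all genes. Of 23 genes of the Ras-MAPK and PI3K-Akt pathways, which carry signals from receptor tyrosine kinases, 4 were called TE-low in the mesoderm (Sos2, Pik3ca, Pik3cd and Pik3r2), beside the same 10.9%, with a median of -0.75. In RPFs 6 of these 23 were called lower in the FL and 0 higher, beside the 17.8% and 14.9% of all genes given above. Of 21 effectors and adaptors of EphA signalling 10 could be matched, with a median log2 TE of -1.54 in the mesoderm, and 4 were called TE-low and 1 TE-high. The symbols at hand favour genes that the study called. Neither these counts nor this median can therefore be read against all genes or the lists above. No symbol for any of the 8 ephrin ligands could be matched, so the ligands were not analysed here.

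The genes most like each member over the 12 NT and FL libraries were found by the root mean square difference of log2 values centred on each gene's own mean, among 3275 genes with a symbol. For Epha4 these were Gfpt1 (0.14) and Lama2 (0.28), for Epha3 Ehbp1 (0.25) and Lrp12 (0.27), for Epha7 Immt (0.26) and Edem3 (0.27), and for Epha2 Slc7a7 (0.45) and Cdyl2 (0.49). The median over the genes searched was between 1.06 and 1.16. Within the family Epha4 and Epha7 were the closest pair (0.48), and Epha2 and Epha7 the farthest apart (1.03). The libraries that stood apart contribute to each of these values.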

How the data were processed

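RNA-Seq and Ribo-Seq libraries of the mesoderm, NT and FL were analysed from the deposited tables. The authors trimmed adapters with cutadapt, removed rRNA, tRNA and snRNA reads, aligned the rest to canonical UCSC known genes (mm10, Bowtie2 per the submitters' processing notes, versions not given in the sources used here), kept unique alignments, counted those on coding sequence after leaving out 15 codons at the start and 5 at the end, and scaled each library to its DESeq effective size. The deposited signal values are these normalized reads. The 2 tables were normalized separately, and tests were run within a table. In each library 100% of the values were whole multiples of 1 step within 0.006, from which reads were recovered.

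Normalized reads plus a pseudocount of 1 were put on the log2 scale and compared in limma 3.58.1 (run in R 4.3.3), using a variance trend on the mean and Benjamini-Hochberg adjustment over all genes of a table. A fold change on this scale understates that of low genes. The mesoderm fit used the replicate number as a block, since the sorted cells were divided between RNA-Seq and Ribo-Seq. Its pairs deviated together (correlations of 0.74, 0.58 and 0.57), and the cause was not tested. Deviations within a group sum to 0, so these correlations are tied to each other. The 12 NT and FL libraries were fitted as 4 groups without a block, which leaves out any pairing of RNA-Seq and Ribo-Seq from the same cells. TE was centred on its median over genes, and called at an adjusted p under 0.05 and 3-fold. Differences between FL and NT were called at 0.05 and 2-fold, and in TE at 0.2 and 2-fold. The limma steps were tested on simulated data. The labels do not say whether same-numbered replicates shared embryos between tissues, so p-values measure the spread between these samples.

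Alternatives were pseudocounts of 0.1 and 8, a mean of at least 100 normalized reads, edgeR 4.0.16 quasi-likelihood tests and DESeq2 1.42.0 on recovered reads, other centring, replicate blocks and leaving out libraries. The last was extended to pairs and sets of libraries after seeing the data. Gene symbols came from the study's supplementary tables by UCSC identifier (3429 and 3285 genes matched), and positions and start contexts from GENCODE M21 by symbol. Named were all EphA genes of the pathway list, Epha5, the EphB receptors, the 2 genes most like each member, and genes of the lists with a role to state. Members and lists were chosen with earlier results of these data known. NT RNA-Seq replicate 1 and NT and FL Ribo-Seq replicates 3 were kept.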

Additional observations from a re-analysis of the deposited data

How the results depend on the processing

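The number of EphA receptors called for TE stayed at 1 in the mesoderm under 11 alternatives and at 0 in the NT and in the FL under 22 each. Fitting the mesoderm with no replicate block changed no EphA call. The labels do not say what the replicate numbers of NT and FL share, and RNA-Seq and Ribo-Seq libraries of the same number correlated in their deviations at -0.28, 0.35 and 0.05 in the NT and 0.05, 0.12 and 0.09 in the FL. A replicate block there lowered the genes called for the TE difference from 45 to 6, or to 4 within each tissue, and changed no EphA call. Between FL and NT, the members called in mRNA went from 0 to 1 without NT RNA-Seq replicate 1 (range over libraries left out, 0 to 1). In RPFs they went from 1 to 2 with centring on the median (Epha7, -1.20), with a range of 1 to 2 over libraries left out, and in TE the range was 0 to 2. Leaving out NT RNA-Seq replicate 1 and FL Ribo-Seq replicate 3 together, chosen after seeing the data, gave 1 call in mRNA, 2 in RPFs and 2 in TE. With Ribo-Seq of NT 1 and 2 and FL 3 only, also chosen after seeing the data, the RPF difference of Epha3 was -1.20 and was not called. The TE difference in that set was -0.50 for Epha7 and -0.12 for Epha4. With NT 3 and FL 1 and 2 only, the RPF difference of Epha7 was -1.57. The TE difference in this other set was -2.13 for Epha7 and -1.26 for Epha4. These sets were chosen by how close the footprints lie to the mRNA of their tissue, a measure that TE contains, and each leaves a tissue with 1 Ribo-Seq library assumed to vary like the others, so they bear on no TE result.

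Over all genes, calls of the TE difference numbered 856 with DESeq2, from 2 to 4072 with 1 library left out (4072 without FL and 2933 without NT Ribo-Seq replicate 3), 3738 without both libraries, and 21 and 2673 with the 2 sets of Ribo-Seq libraries. At an unadjusted p under 0.05 there were 1901. Calls of TE in the FL went from 2204 to 3451 without FL Ribo-Seq replicate 3 and 3452 without both libraries, and calls in RPFs from 3678 to 2336 with Ribo-Seq of NT 1 and 2 and FL 3 only.

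Signs turned only in values that were not called with all libraries, and the cause was not tested. Ranges over single libraries or replicates left out crossed 0 for these values. Log2 TE in the mesoderm ranged from -0.040 to 0.39 for Epha2 and from -0.41 to 0.030 for Ephb2. In the NT it ranged from -0.68 to 0.51 for Epha2 (0.51 also without both libraries) and from -0.52 to 0.16 for Epha3. In the FL it ranged from -0.070 to 0.29 for Epha2 (-0.070 also without both), from -0.56 to 0.14 for Epha4 and from -0.72 to 0.0086 for Ephb1. The mRNA difference of Epha2 ranged from -1.18 to 0.014 (0.014 also without both). The RPF difference ranged from -0.54 to 0.17 for Epha4 and from -0.17 to 0.29 for Ephb6 (-0.096 without both). The TE difference ranged from -0.38 to 0.82 for Epha2 (-0.61 without both) and from -0.58 to 0.15 for Ephb1. In edgeR with TMM, edgeR with the deposited library sizes and DESeq2, log2 TE of Epha4 in the FL was 0.035, 0.016 and 0.015, its RPF difference 0.050, 0.067 and 0.067, and that of Ephb6 -0.076, -0.050 and -0.049 (-0.036 when centred on the median). With Ribo-Seq of NT 1 and 2 and FL 3 only, the RPF difference was 0.024 for Epha2, 0.75 for Epha4 and 0.064 for Epha7, and the TE difference 0.050 for Ephb1, 0.25 for Ephb3, 0.39 for Ephb4 and 0.14 for Ephb6. With NT 3 and FL 1 and 2 only, the RPF difference of Ephb6 was -0.68. Scaling by library totals moved 1 level past its SD, that of Epha7 in FL RNA-Seq, from 534 to 577 normalized reads per kb. Depth limits Epha8, with at most 40 footprint reads per mesoderm library, and Epha5, with as few as 14 in FL Ribo-Seq.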

Other observations

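In NT RNA-Seq replicate 1, in which Epha2 stood at 2866 normalized reads, other genes chosen after their values were seen stood out with it. Klf4 and Klf5, transcription factors of pluripotent cells and epithelia, had 1028 and 977 normalized reads there, against 107 and 104 for Klf4 and 122 and 69.1 for Klf5 in replicates 2 and 3. Etv4 and Etv5, transcription factors induced by FGF signalling, had 1209 and 1527, against 164 and 170 for Etv4 and 257 and 216 for Etv5. Spry4, an FGF antagonist, had 804 against 97.7 and 45.6. In NT Ribo-Seq replicate 1 the values were 171 for Klf4, 257 for Klf5, 200 for Etv4, 486 for Etv5 and 189 for Spry4, and Epha2 had 838, near its other NT Ribo-Seq libraries. The genes of neural cells moved the other way in that library, where the 5 neural markers summed to 37832 normalized reads against 60667 and 59078. What these values have to do with Epha2 was not tested.

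NT and FL Ribo-Seq libraries of the same number deviated from their group means in opposite directions, with correlations across genes of -0.29, -0.50 and -0.58. Deviations within a group sum to 0, so these values are not independent of each other. NT Ribo-Seq replicates 1 and 2 were the most alike of any replicate pair. Their recovered reads differed by more than sampling noise (chi-square over degrees of freedom of 7.83, against 160 and 173 for the pairs with replicate 3). This measure cannot tell separate samples from 2 libraries of 1 sample. They were counted as separate samples because the study describes 3 biological replicates.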
